A study of Rattus norvegicus with 36 samples.

Results

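The response to N-nitrosomethylurea (NMU) at 6 h was measured in mammary glands of F344 (Fischer) rats. It was taken from 6 of the 36 arrays of the study, the 3 whose titles name F344 rats at 6 h with NMU treatment and the 3 whose titles name F344 control rats at 6 h. The whole study covered 2 strains, F344 and Cop (Copenhagen), with glands taken 6 h, 1 d or 30 d after treatment. The F344 rats given NMU were 55 days old, and their controls, of the same strain and age, received saline vehicle. Both groups were collected 6 h later. No genetic alteration is given for either group. The labels call the 3 arrays of a group biological replicates, and nothing says that each came from its own animal. The p-values thus measure only the spread between arrays of a group, pooled over all 36 arrays of the study. The labels give neither the dose of NMU nor the hour of the day at which glands were taken. Each array reported 31099 probe sets, of which 20832 carried 1 gene symbol. The 6 arrays had median log2 values of 5.72 to 5.76 with NMU, against 5.67 to 5.72 in controls. Of 8 defining genes of the gland (the luminal keratins Krt8 and Krt18, the basal keratins Krt14 and Krt5, Epcam of epithelium, Adipoq and Plin1 of fat cells and the collagen gene Col1a1), all lay between 8.27 and 13.07 on the 6 arrays, so the tissue carried epithelial, fat and connective tissue RNA. The precision of every value below was limited by the number of arrays.

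NMU is a direct-acting methylating agent that puts methyl groups on DNA bases without metabolic activation, and it is a classical inducer of mammary tumours in rats. F344 rats are known as susceptible to such tumours and Copenhagen rats as resistant. Damaged DNA stabilises the transcription factor p53, whose targets halt the cell cycle or promote cell death. The mammary gland is a mixed tissue of milk duct epithelium embedded in fat, with vessels and resident immune cells. In such bulk tissue, fewer cells of a type and less RNA per cell cannot be told apart.

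Few probe sets were called 6 h after NMU in F344, which does not show that the others were unchanged. Of 20749 probe sets tested with limma, 129 passed an adjusted p (Benjamini-Hochberg) of 0.05, which is 0.622%. Among them 78 were higher after NMU (0.376%) and 51 lower (0.246%). They comprised 64 symbols that rose and 33 that fell, and 22 probe sets had no single symbol. The rises spanned 0.42 to 2.36 on the log2 scale, and the falls -0.33 to -3.23. In all 129 the NMU arrays lay entirely above or entirely below the control arrays. This is no second test, since the calls were made on the same values. Of all 11509 genes, called or not, 17.7% had all NMU arrays above the controls and 7.99% all below. Another scaling moved the split: after quantile normalization 62 were higher and 84 lower, since the median change of all genes was 0.07 as deposited and 0.004 after quantile normalization. The count also rested on single arrays. It was 51 without NMU array 1, 23 without NMU array 2, 70 without control array 1, 24 without control array 2 and 42 without control array 3. The 14 probe sets called with any 1 of the 6 arrays left out included S100a8, S100a9, Sele, Nupr1, Nr4a3 and Gabarapl1 among the rises and Insig1, Nsdhl, Gpc6, Rbms3 and Aldh18a1 among the falls.

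Genes of neutrophils and of activated vessel wall led the rises. S100a9, which with S100a8 encodes calprotectin, an abundant neutrophil protein, had log2 values of 7.62, 7.37 and 7.46 on the NMU arrays, against 5.40, 5.30 and 4.68 on the control arrays. Every NMU array lay above every control array, and the mean difference was 2.36 ± 0.35 (log2, SE; adjusted p = 0.00141). S100a8 had 7.003, 6.489 and 5.983 with NMU, against 4.63, 4.33 and 4.39 in controls, a difference of 2.04 ± 0.26 (adjusted p = 0.000193). Its NMU values spread over a wider range than its controls and did not overlap them. The neutrophil list held 17 genes, of which 4 passed the filter on dim probe sets, so it speaks only for those 4. Of these, S100a8 and S100a9 were called higher, where 0.495% of all 11509 genes were. The other two were Lcn2, which encodes an iron-binding defence protein that epithelium also makes, with a difference of 1.28 (adjusted p = 0.116), and Il1r2, a decoy receptor for interleukin 1, with 1.42 (adjusted p = 0.209). On all 6 arrays Csf3r, Cxcr2, Mmp8, Mmp9 and Camp, which also mark neutrophils, were left out as dim, with log2 values of 3.58 to 4.54. The remaining 8 genes of the list were not matched to a probe set. The filter level, the 40th percentile, was 4.95 to 5.02 on the 6 arrays. S100a8 lay below it on every control array, so among these arrays only those with NMU lifted it over. The filter thus helped to choose the 4 genes, and their share of calls is no further support. Over the 9 genes matched to a probe set the median change was 0.12.

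Sele encodes E-selectin, which the lining of activated vessels displays to catch white cells. It had 6.57, 6.28 and 6.43 with NMU, against 5.003, 4.727 and 5.034 in controls, and rose by 1.51 ± 0.25 (adjusted p = 0.00232). The 2 groups were separated by more than the range within either. Ackr1, a chemokine-binding receptor of venules, had 9.30, 8.91 and 9.04 with NMU, against 8.42, 8.31 and 8.36 in controls (0.72 ± 0.16, adjusted p = 0.0325). Its call was lost with any 1 of the 6 arrays left out, at adjusted p values of 0.057 to 0.176, while Sele stayed called. With these 2 of 5 genes called, against 0.495% of all genes called higher, the activated endothelium list had a median change of 0.57, against 0.07 for all genes. The adhesion molecules Icam1 (0.57, adjusted p = 0.195) and Vcam1 (0.37, adjusted p = 0.539) and the platelet selectin Selp (0.16, adjusted p = 0.619) did not pass. None of 12 general endothelial genes was called, and their median change was 0.24, or 0.14 after quantile normalization, with Pecam1, a junction protein of all endothelium, at 0.40 (adjusted p = 0.266). Outside the lists, and chosen after their values were seen, the vasoconstrictor gene Edn1 (0.73 ± 0.17, adjusted p = 0.0386), the water channel gene Aqp1 (0.74 ± 0.16, adjusted p = 0.0229) and the endothelial adhesion receptor gene Adgrl4 (0.80, adjusted p = 0.016) were also called higher.

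Mmp12, the elastase of macrophages, was at 7.779, 7.999 and 8.131 with NMU, against 5.84, 6.55 and 6.24 in controls. It rose by 1.76 ± 0.34 (adjusted p = 0.0144) and was the only one of 17 macrophage genes called, against 0.495% of all genes called higher. The list median was 0.15, and it was 0.05 after quantile normalization and between 0.03 (without NMU array 3) and 0.31 (without NMU array 2) with 1 array left out. Its adjusted p was 0.0337 to 0.0712 with 1 array left out, and the call was lost without control array 1, control array 3 or NMU array 2. The classical macrophage genes Csf1r (-0.18, adjusted p = 0.666) and Lyz2 (0.15, adjusted p = 0.715) did not pass. Itgax, an integrin of dendritic cells and macrophages that was chosen after its value was seen, was called at 0.81 (adjusted p = 0.0262). Cytokine genes varied between the NMU arrays. None of 14 tested genes of the inflammatory list was called, and the median was 0.39, or 0.21 without NMU array 3. Ccl2, a monocyte attractant, had 7.94, 9.51 and 10.09 with NMU, against 8.95, 7.27 and 8.03 in controls, so NMU array 1 lay within the control range and NMU arrays 2 and 3 above it (adjusted p = 0.325). Cxcl1, a neutrophil attractant, had 7.65 on NMU array 3, and the other five arrays lay between 5.47 and 6.11 (adjusted p = 0.461).

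**Figure D1:**
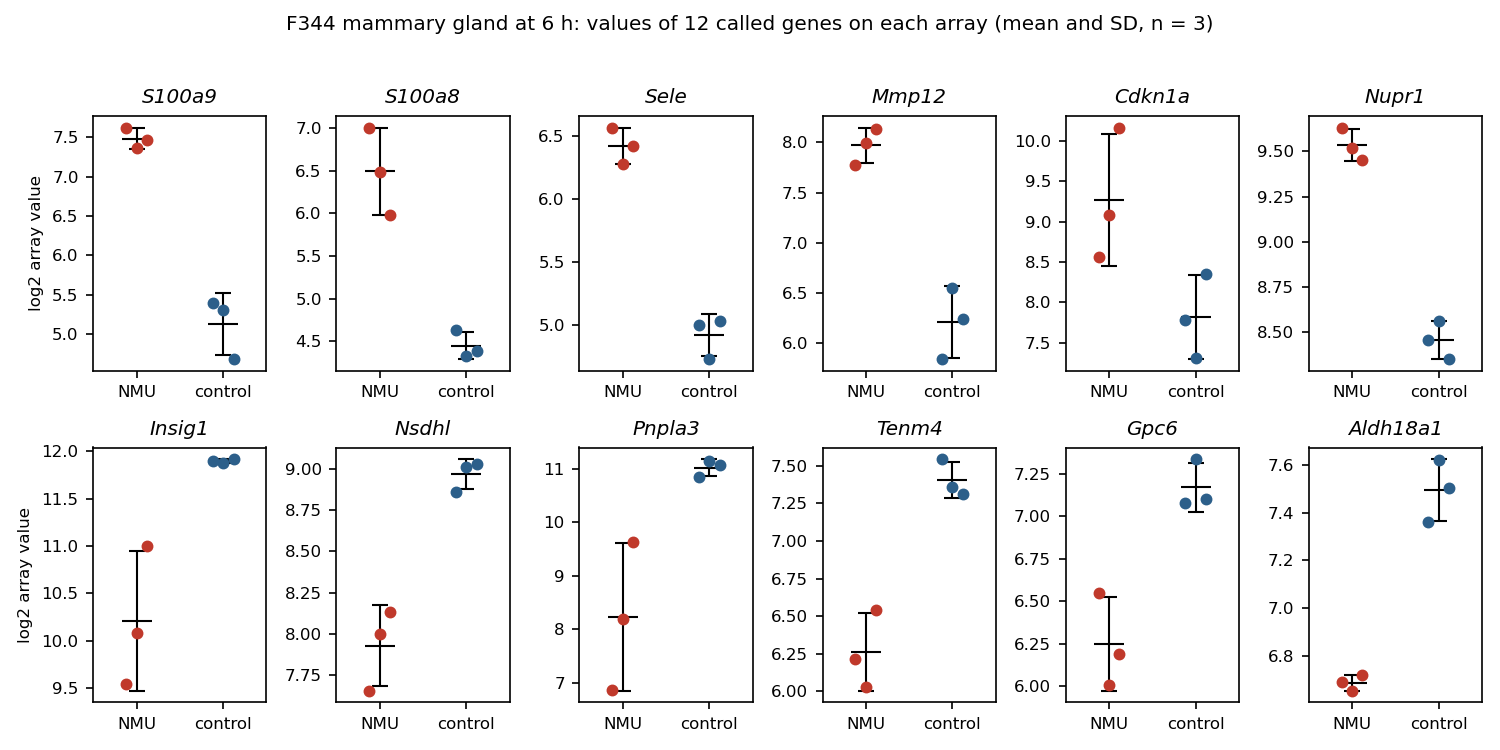
Log2 array values of 12 genes called in F344 at 6 h, with the NMU arrays in red left of the control arrays in blue, and the mean and SD of each 3 as black bars. Each panel has its own vertical axis that does not start at 0. In every panel the NMU arrays lie entirely above (upper row) or below (lower row) the controls. Pnpla3, Cdkn1a and Insig1 spread most among the NMU arrays.

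Of 25 tested targets of p53, 3 rose after NMU, against 0.495% of all genes. Cdkn1a encodes the cell cycle inhibitor p21. It had 8.56, 9.09 and 10.17 with NMU, against 7.78, 7.31 and 8.36 in controls, and rose by 1.45 ± 0.26 (adjusted p = 0.0066). NMU array 1 exceeded control array 3 by a small margin, and NMU array 3 stood highest. Without control array 2 its adjusted p was 0.0779. Aen, a nuclease that takes part in p53-dependent cell death, had 7.36, 7.78 and 8.23 with NMU, against 6.92, 6.89 and 6.75 in controls (0.94 ± 0.20, adjusted p = 0.0212). The death receptor gene Fas had 6.88, 7.46 and 7.33 with NMU, against 6.44, 6.57 and 5.95 in controls (0.90 ± 0.19, adjusted p = 0.022). In Aen and Fas, as in Cdkn1a, NMU array 1 was the lowest of the NMU arrays, and no groups overlapped. Leaving out an array took the adjusted p of Aen to between 0.00954 and 0.114 and that of Fas to between 0.0177 and 0.197. The list then had 1 gene called without NMU array 2, NMU array 3, control array 2 or control array 3.

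The other genes of the list did not pass. Of the 25 genes, 24 had a change above 0, where 36.9% of all genes had one below 0, and the list median was 0.32. In 10 of the 25 all NMU arrays lay above all controls, against 17.7% of all genes. Taken array by array, 12 exceeded every control on NMU array 1, 15 on NMU array 2 and 20 on NMU array 3. No share of all genes was taken for single arrays, so these 3 counts have no background. Mdm2, the ubiquitin ligase that degrades p53, had 8.45, 8.71 and 9.34 with NMU, against 8.25, 8.25 and 8.34 in controls (0.56, adjusted p = 0.196). All 3 NMU arrays lay above the controls, NMU array 1 by the least. Gdf15, a stress cytokine, had 4.90 on NMU array 1, within the control range of 4.76 to 5.14, and 6.38 and 6.29 on NMU arrays 2 and 3 (adjusted p = 0.28). Phlda3, an inhibitor of Akt signalling, gave 0.65 (adjusted p = 0.2), and Ccng1, a cyclin that is a classical p53 target, gave 0.43 (adjusted p = 0.312). The mean of the list, with 1 gene too dim to test included, was 7.33, 7.60 and 7.79 on the NMU arrays. On the control arrays it was 7.28, 7.21 and 7.17. Only NMU arrays 2 and 3 stood clearly apart from the controls.

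Repair genes did not pass. Mgmt, the methyltransferase that removes methyl groups from guanine, had 7.63, 8.19 and 8.14 with NMU, against 7.91, 7.95 and 7.95 in controls, and the groups overlapped (0.05, adjusted p = 0.895). None of the 18 genes of alkylation, base excision and mismatch repair was called, and their median change was 0.17, or 0.062 after quantile normalization and 0.099 without control array 3. Mpg, the glycosylase that excises methylated bases, gave 0.42 (adjusted p = 0.335), and Msh6, a mismatch sensor, 0.45 (adjusted p = 0.413).

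Genes of lipid synthesis supplied the largest falls. Cells make cholesterol and fatty acids under the SREBP transcription factors, and Insig proteins hold these in the endoplasmic reticulum when sterols are plentiful. SREBP-regulated promoters commonly carry CCAAT boxes, bound by NF-Y, beside sterol response elements. Of 42 genes in the cholesterol and fatty acid lists, 31 had a promoter in the RefSeq table of GRCr8, and 30 of these were tested. The 250 bases before the start of each were searched on both strands for CCAAT (reverse complement ATTGG) and for TCACNCCAC (reverse complement GTGGNGTGA), motifs that do not overlap each other. CCAAT was found in 25 of the 30, and in 34% of all 33469 promoters of the same length. TCACNCCAC was found in 0 of the 30 and in 0.974% of all promoters, which says only that these letters are not in these windows. The windows of the 4 genes whose fall passed the test are shown 5′ to 3′ in the direction of transcription, with CCAAT or ATTGG in capitals, to show how they differ in this motif. They lie on the minus strand at chr4:8057770-8058019 for Insig1, and on the plus strand at chrX:155817110-155817359 for Nsdhl, chr7:117173278-117173527 for Pnpla3 and chr4:30991443-30991692 for Cyp51, in GRCr8.
Insig1: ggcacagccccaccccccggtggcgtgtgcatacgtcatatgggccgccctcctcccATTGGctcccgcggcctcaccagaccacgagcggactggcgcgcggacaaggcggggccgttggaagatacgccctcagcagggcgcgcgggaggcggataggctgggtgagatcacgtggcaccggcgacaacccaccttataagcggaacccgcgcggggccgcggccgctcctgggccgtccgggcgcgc
Nsdhl: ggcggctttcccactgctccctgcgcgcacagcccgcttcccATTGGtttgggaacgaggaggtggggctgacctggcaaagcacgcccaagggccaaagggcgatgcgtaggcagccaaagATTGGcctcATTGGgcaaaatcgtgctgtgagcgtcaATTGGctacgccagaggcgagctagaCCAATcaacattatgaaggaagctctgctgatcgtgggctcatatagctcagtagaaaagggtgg
Pnpla3: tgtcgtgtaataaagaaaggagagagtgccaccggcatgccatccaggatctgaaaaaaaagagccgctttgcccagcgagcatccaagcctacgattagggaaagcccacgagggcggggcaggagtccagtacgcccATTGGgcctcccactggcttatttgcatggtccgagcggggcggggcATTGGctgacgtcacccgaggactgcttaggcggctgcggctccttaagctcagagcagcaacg
Cyp51: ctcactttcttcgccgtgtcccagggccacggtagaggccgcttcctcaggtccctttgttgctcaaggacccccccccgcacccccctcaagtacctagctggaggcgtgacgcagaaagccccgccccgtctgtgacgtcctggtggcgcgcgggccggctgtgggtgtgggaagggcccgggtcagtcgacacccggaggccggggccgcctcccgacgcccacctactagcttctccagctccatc
Insig1 has 1 such motif, Nsdhl 5, Pnpla3 2 and Cyp51 0. Whether the motif count goes with the size of the change given next was not tested. A motif is a match of letters and not a shown binding site.

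Insig1, the sterol-responsive anchor of the SREBPs and itself one of their targets, had 9.543, 10.081 and 11.003 with NMU, against 11.89, 11.87 and 11.92 in controls. Its controls were nearly equal and its NMU arrays spread widely, with NMU array 1 lowest. It fell by 1.69 on the log2 scale (SE 0.26, adjusted p = 0.00167). Nsdhl, a demethylating enzyme of the late sterol pathway, had 7.652, 7.999 and 8.132 with NMU, against 8.86, 9.02 and 9.03 in controls, and its difference was -1.04 ± 0.17 (adjusted p = 0.00167). Cyp51, the lanosterol demethylase, had 8.37, 8.78 and 9.20 with NMU, against 9.40, 9.50 and 9.44 in controls (-0.66 ± 0.16, adjusted p = 0.0451). Again NMU array 1 was lowest, and NMU array 3 lay close below the controls. The adjusted p of Cyp51 was 0.00613 to 0.277 with 1 array left out, and the call held only without NMU array 3. A second probe set of Lss, the enzyme that forms lanosterol, also fell (-0.70, adjusted p = 0.035), while the probe set that represents the gene gave -0.54 (adjusted p = 0.122).

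The cholesterol list as a whole lay below the controls. Of 20 tested genes 3 fell, against 0.243% of all genes, 19 had a change below 0, and 12 had all NMU arrays under all controls, against 7.99% of all genes. The median change was -0.51. Examples that did not pass were Fdps, of farnesyl diphosphate synthesis (-0.70, adjusted p = 0.144), Sqle, the squalene epoxidase (-0.71, adjusted p = 0.196), and Srebf2, which encodes the sterol regulator itself (-0.40, adjusted p = 0.338). Insig2, the Insig1 relative, was the exception, at 0.31 (adjusted p = 0.378). The list mean was 7.40, 7.74 and 7.89 on the NMU arrays, against 8.22, 8.27 and 8.08 on the control arrays.

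Pnpla3, a lipase-like protein of lipid droplets whose gene is driven by SREBP-1c in mouse and human liver, had 6.87, 8.20 and 9.64 with NMU, against 10.85, 11.16 and 11.07 in controls. The NMU arrays differed among themselves by more than 2 log2 units, yet all stood below the controls. The gene fell by 2.79 on the log2 scale (SE 0.55, adjusted p = 0.016), and its adjusted p was 0.00184 to 0.114 with 1 array left out. It passed only without NMU array 3 or control array 1. Of 17 fatty acid synthesis genes it was the only one called, against 0.243% of all genes called lower. Of the 17, 15 had a change below 0, against 36.9% of all genes, and 13 had all NMU arrays below all controls, against 7.99%. The median was -0.55. Elovl6, the elongase of long-chain fatty acids, had 9.36, 10.10 and 9.45 with NMU, against 11.02, 11.43 and 10.96 in controls, groups that did not overlap (-1.50, adjusted p = 0.0783). Scd2, a desaturase, fell on a second probe set (-1.20, adjusted p = 0.0416), and gave -1.03 (adjusted p = 0.16) on the set of highest signal. Acaca, Fasn and Acly, the central enzymes of fatty acid synthesis, had differences of -0.61, -0.43 and -0.67, each with a separation of the groups and an adjusted p between 0.185 and 0.358. Srebf1, which encodes their regulator, was at 0.01 (adjusted p = 0.983). Aacs, which activates acetoacetate for lipid synthesis, fell outside the lists (-1.01 ± 0.23, adjusted p = 0.0353).

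In contrast, genes of stored fat showed no common shift. None of 23 adipocyte and lipid storage genes was called, and the median change was 0.03, or 0.12 without control array 1. Some genes of lipid export and breakdown, chosen after their values were seen, were called higher. The cholesterol exporters Abca1 (0.72 ± 0.16, adjusted p = 0.0325, on a probe set that does not represent the gene) and Abcg1 (0.67 ± 0.16, adjusted p = 0.0386) rose, as did Abhd5, the coactivator of fat cell lipase (0.55, adjusted p = 0.046), and Pla2g15, a lysosomal phospholipase (0.88, adjusted p = 0.016).

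**Figure D2:**
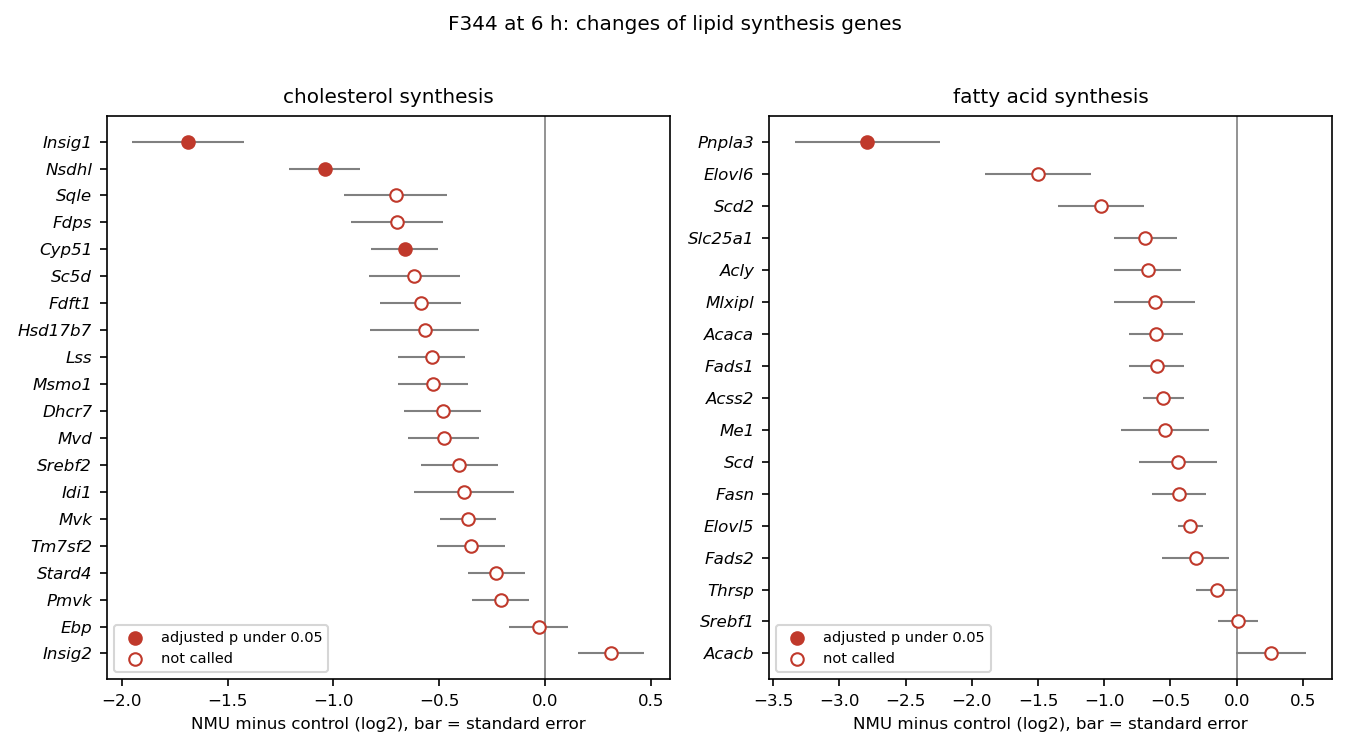
Change (NMU minus control, log2) of each tested gene of the cholesterol list and the fatty acid list in F344 at 6 h, with its standard error. Filled points passed an adjusted p of 0.05. All but Insig2 on the left and Srebf1 and Acacb on the right lie below 0, and only Insig1, Nsdhl, Cyp51 and Pnpla3 are filled.

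Very long genes made up a large share of the falls. The span of each gene between its first and last base was taken from RefSeq for 11470 genes, and 300 kb was set as a limit after the values were seen, so the following is a description with no test. Genes of 300 kb or more numbered 254, which is 2.21% of the genes, but 13 of the 28 genes called lower (46.4%). None of the genes called higher was that long. Their median change was -0.18, and 77.6% of them had a change below 0, against 36.9% of all genes. In 77 of them (30.3%) every NMU array lay below every control array, against 7.99% of all genes. The medians in the shorter classes were 0.07 (under 10 kb), 0.09 (10 to 30 kb), 0.09 (30 to 100 kb) and 0.02 (100 to 300 kb). The median span was 260 kb for the genes called lower, 11.6 kb for those called higher and 23.2 kb for all genes. Among the genes called lower, just inside the limit stood Epha3 at 336 kb and just outside it Dclk1 at 294 kb.

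The longest of the called genes was Tenm4, a teneurin that guides cell contacts in the nervous system, with a span of 2975 kb. It had 6.21, 6.03 and 6.54 with NMU, against 7.55, 7.36 and 7.31 in controls, and its difference was -1.15 ± 0.21 (adjusted p = 0.0106). The groups were far apart relative to the range within either. Without NMU array 2 its adjusted p was 0.0726. Gpc6, a cell surface heparan sulfate carrier of 998 kb, had 6.55, 6.01 and 6.19 with NMU, against 7.08, 7.34 and 7.10 in controls (-0.92 ± 0.15, adjusted p = 0.00282), and stayed called with any 1 array left out. Cdh13, a cadherin anchored by lipid that binds adiponectin (1038 kb), fell on both of its called probe sets, by 0.85 and by 0.83 (adjusted p = 0.016 and 0.0274). Rbms3, an RNA-binding protein of 787 kb, had 7.72, 7.41 and 7.56 with NMU, against 8.45, 8.47 and 8.14 in controls (-0.79 ± 0.14, adjusted p = 0.00345). Its other probe set gave the same difference with more spread (-0.79, adjusted p = 0.116).

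Wwox, an oxidoreductase gene at a fragile site (931 kb), had 4.20, 4.36 and 4.37 with NMU, against 5.09, 5.27 and 5.07 in controls on its called probe set (-0.83 ± 0.15, adjusted p = 0.0066). On its brighter set it gave -0.44 (adjusted p = 0.328). Counted on any probe set, 16 symbols of this length were called lower. Those not yet described were the mitochondrial peptidase gene Immp2l, the neuronal adhesion gene Negr1, the phospholipase gene Plcb1, the orphan receptor gene Esrrg, the sodium-proton exchanger gene Slc9a9, the fucose synthesis gene Gmds, the trafficking gene Trappc9, the zinc carrier gene Slc39a11, the RNA demethylase gene Fto, the adenosine kinase gene Adk and the ephrin receptor gene Epha3. Their called differences ranged from -0.42 for Fto to -1.01 for Epha3. Rbms3, Wwox and Esrrg were called on a dimmer probe set only, so they are not among the 13, and the brighter set of Esrrg gave -1.08 (adjusted p = 0.0692).

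The length pattern was uneven between arrays. The median deviation of the 254 genes from their 6-array means was -0.001, -0.103 and -0.153 on the NMU arrays, against 0.110, 0.143 and -0.002 on the control arrays. NMU array 1 and control array 3 were thus nearly equal on this measure, while the other four arrays differed by group. The median stayed between -0.16 and -0.22 with any 1 of the 6 arrays left out. The count of long genes called lower was smaller in each such fit, with 4 without NMU array 1, 2 without NMU array 2, 7 without NMU array 3, 5 without control array 1, 3 without control array 2 and 6 without control array 3. Among long genes the median change was -0.18 for those of low signal, -0.23 for those of middle signal and -0.08 for those of high signal (classes of equal gene number), so it was below 0 at each level. In Cop rats at 6 h the same genes had a median of -0.25, with 51 called lower (20.1%, against 3.29% of all genes) and 2 called higher. Of these long genes 8 were called lower in both strains, where F344 had 13 called lower. A change below 0 in both strains was seen in 166 of the 254. The test of a strain difference passed for 1 of the 254, against 0.877% of all probe sets. In F344 at 1 d the median was -0.05, with 2 called lower, against 0.148% of all genes.

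**Figure D3:**
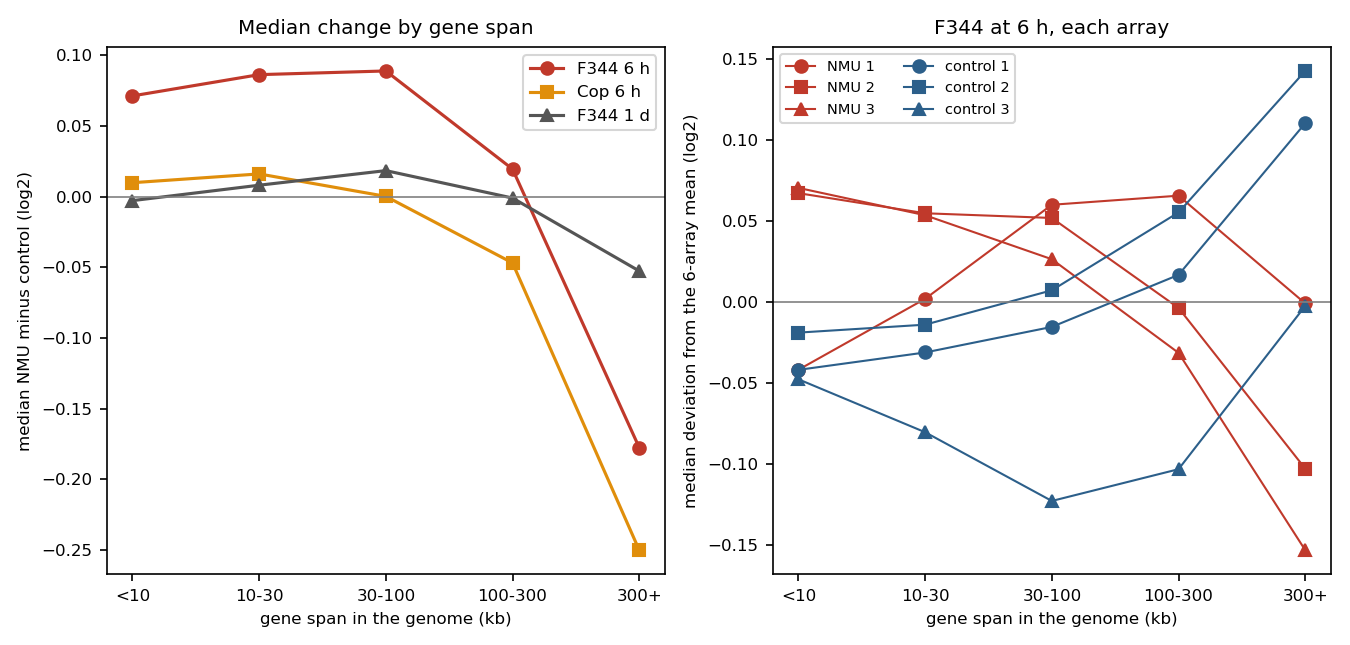
Left, median change (NMU minus control, log2) of genes in 5 classes of genomic span for F344 at 6 h, Cop at 6 h and F344 at 1 d. Right, median deviation of the same classes from the 6-array mean on each F344 array at 6 h, NMU in red and control in blue. The class of 300 kb or more is lowest for all 3 comparisons on the left, and on the right NMU array 1 and control array 3 meet near 0 in that class.

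Nupr1, a stress-induced chromatin protein, had 9.63, 9.52 and 9.46 with NMU, against 8.46, 8.56 and 8.35 in controls, and was also among the leading rises, at 1.08 ± 0.17 (adjusted p = 0.00167). The arrays of each group lay close together, and the groups were far apart. Gabarapl1, a protein of autophagosome membranes, had 9.49, 9.32 and 9.20 with NMU, against 8.62, 8.57 and 8.39 in controls (0.82 ± 0.14, adjusted p = 0.00282). Ctsl, a lysosomal protease chosen after its value was seen, was called on its dimmer probe set (0.66, adjusted p = 0.016). Nr4a3, an orphan nuclear receptor and immediate early gene, had 6.96, 7.08 and 6.50 with NMU, against 5.02, 4.78 and 4.21 in controls on 1 probe set (2.18 ± 0.29, adjusted p = 0.000409). Its brighter probe set gave only 0.40 (adjusted p = 0.238), so the sets disagree in size. Of 20 immediate early genes none was called by its representing probe set, and the median was 0.35. Maff, a small leucine zipper factor, came closest at 0.93 (adjusted p = 0.0584).

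Mt2A, a metal-binding protein induced by glucocorticoids, had 11.60, 11.27 and 10.57 with NMU, against 10.22, 9.80 and 10.12 in controls (1.10 ± 0.24, adjusted p = 0.0292). NMU array 3 was its lowest treated value and still above the controls. It was the only one of 16 glucocorticoid-induced genes called, against 0.495% of all genes called higher, with a list median of 0.46. The list mean, with 1 gene too dim to test included, was 8.84, 8.37 and 8.06 on the NMU arrays. On the control arrays it was 7.85, 7.95 and 8.22, and the groups overlapped. Inmt, a methyltransferase of small amines, had 8.29, 8.15 and 7.99 with NMU, against 7.22, 6.59 and 6.27 in controls (1.45 ± 0.34, adjusted p = 0.0386). The patterning gene Hoxa9 gave 1.27 ± 0.29 (adjusted p = 0.0353) and the glutamate transporter gene Slc1a3 1.17 ± 0.27 (adjusted p = 0.0353). Telo2, a chaperone cofactor of the damage-sensing kinases, had 8.20, 7.78 and 7.19 with NMU, against 6.79, 6.51 and 6.64 in controls (1.08 ± 0.20, adjusted p = 0.0113). Pvt1, a long noncoding RNA beside Myc, had 7.26, 7.90 and 7.64 with NMU, against 6.74, 6.75 and 6.35 in controls (0.99 ± 0.19, adjusted p = 0.0117). All of these were separated between the groups, and each of these 6 was lost with at least 1 array left out, at adjusted p values up to 0.268. With 1 array left out, Mt2A passed only without NMU array 3 and Inmt only without control array 1.

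Among the falls that were neither long nor lipid genes, Aldh18a1, which makes the precursor of proline, had 6.69, 6.65 and 6.72 with NMU, against 7.36, 7.62 and 7.50 in controls (-0.81 ± 0.12, adjusted p = 0.00145). The NMU arrays were almost identical, and the call held with any 1 array left out. In the list of ATF4 targets, to which Nupr1 and Aldh18a1 both belong, these 2 of 25 were the only calls by representing probe set. They went opposite ways, and 0.739% of all genes were called. Outside this count, a probe set of Trib3 was called higher (0.59 ± 0.14, adjusted p = 0.037). The list median was 0.03, and -0.018 without control array 3. Aldh1l2, a mitochondrial folate enzyme, had 6.26, 6.20 and 6.86 with NMU, against 7.67, 8.11 and 8.03 in controls (-1.50 ± 0.36, adjusted p = 0.0474). Igdcc4, a neuronal surface receptor (-1.15 ± 0.24, adjusted p = 0.0178), and Odad4, a part of motile cilia (-1.11 ± 0.23, adjusted p = 0.0194), also fell.

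Of 27 fibroblast and matrix genes 2 fell, Fn1 and Fbn1, against 0.243% of all genes. In 26 of them the change was below 0, against 36.9% of all genes, and 12 had all NMU arrays below all controls, against 7.99%. The median was -0.27. Fn1, fibronectin, had 11.10, 10.16 and 10.79 with NMU, against 11.26, 11.61 and 11.39 in controls (-0.74 ± 0.18, adjusted p = 0.0467). Fbn1, fibrillin of elastic fibres, had 10.61, 9.90 and 10.28 with NMU, against 10.93, 11.13 and 10.73 in controls (-0.67 ± 0.16, adjusted p = 0.0448). In both, NMU array 2 was lowest and NMU array 1 lay close below the controls. Without NMU array 2 their adjusted p values were 0.364 and 0.338, and the list had no call without NMU array 2, NMU array 3 or any 1 control array. The mean of the 25 muscle genes matched to a probe set, 24 of them tested, was also lowest on NMU array 2. It was 10.44, 8.23 and 10.15 on the NMU arrays, against 9.61, 9.42 and 10.54 on the control arrays. No muscle gene was called, and the part of muscle in the matrix values was not tested.

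Among the lists without a call, the T and NK cell list had the median farthest from 0. The mean of 19 T and NK cell genes was 6.60, 6.54 and 6.61 on the NMU arrays, against 7.27, 7.18 and 7.004 on the control arrays. The NMU arrays were alike, and all lay below every control. The median change was -0.68, 16 genes had a change below 0, against 36.9% of all genes, and 14 had all NMU arrays below all controls, against 7.99% of all genes. None passed in limma, with the spread pooled over all 12 groups or with the 6 arrays fitted alone. Cd247, the zeta chain of the T cell receptor, had 6.51, 6.19 and 6.28 with NMU, against 7.43, 7.51 and 7.28 in controls (-1.08, adjusted p = 0.451). Cd3g, another chain of that receptor, had 8.30, 8.36 and 8.25 with NMU, against 9.29, 9.30 and 8.89 in controls (-0.85, adjusted p = 0.649). The cytotoxic genes Gzma and Gzmb did not share this, at 0.35 (adjusted p = 0.536) and 0.28 (adjusted p = 0.569). B cell genes had a median of -0.14 over 10 genes with none called, and it was -0.0042 without NMU array 1 and -0.0086 without control array 2.

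In the epithelium no list had a call. The median was 0.31 over 20 luminal genes, -0.20 over 14 basal genes and 0.29 over 10 milk protein genes. With 1 array left out the luminal median reached 0.48 (without NMU array 1), the basal median lay between -0.042 (without control array 1) and -0.25 (without control array 3), and the milk protein median between 0.052 (without NMU array 2) and 0.52 (without NMU array 3). Prlr, the prolactin receptor, had 9.62, 9.41 and 9.40 with NMU, against 9.33, 9.20 and 9.43 in controls, and overlapped (0.16, adjusted p = 0.893). Of 34 G2 and M phase genes, 29 had a change below 0, against 36.9% of all genes, with a median of -0.21 and none called. The median of 27 S phase genes, of which none was called, was 0.06, but -0.007 without NMU array 2 and -0.023 after quantile normalization. Of 15 clock genes 14 had a change above 0, and 8 had all NMU arrays above all controls, against 17.7% of all genes, with a median of 0.29, or 0.19 without NMU array 2. Dbp, an output gene of the clock, had 9.72, 9.74 and 10.12 with NMU, against 9.58, 9.17 and 9.35 in controls (0.49, adjusted p = 0.285), and Per2, a core repressor, overlapped between the groups (0.13, adjusted p = 0.841). The median of 25 interferon-stimulated genes was 0.26 with none called, and 0.15 after quantile normalization or without control array 2 and 0.16 without NMU array 2. Rsad2, an antiviral enzyme, had the list's largest difference, 1.06 (adjusted p = 0.0893).

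**Figure D4:**
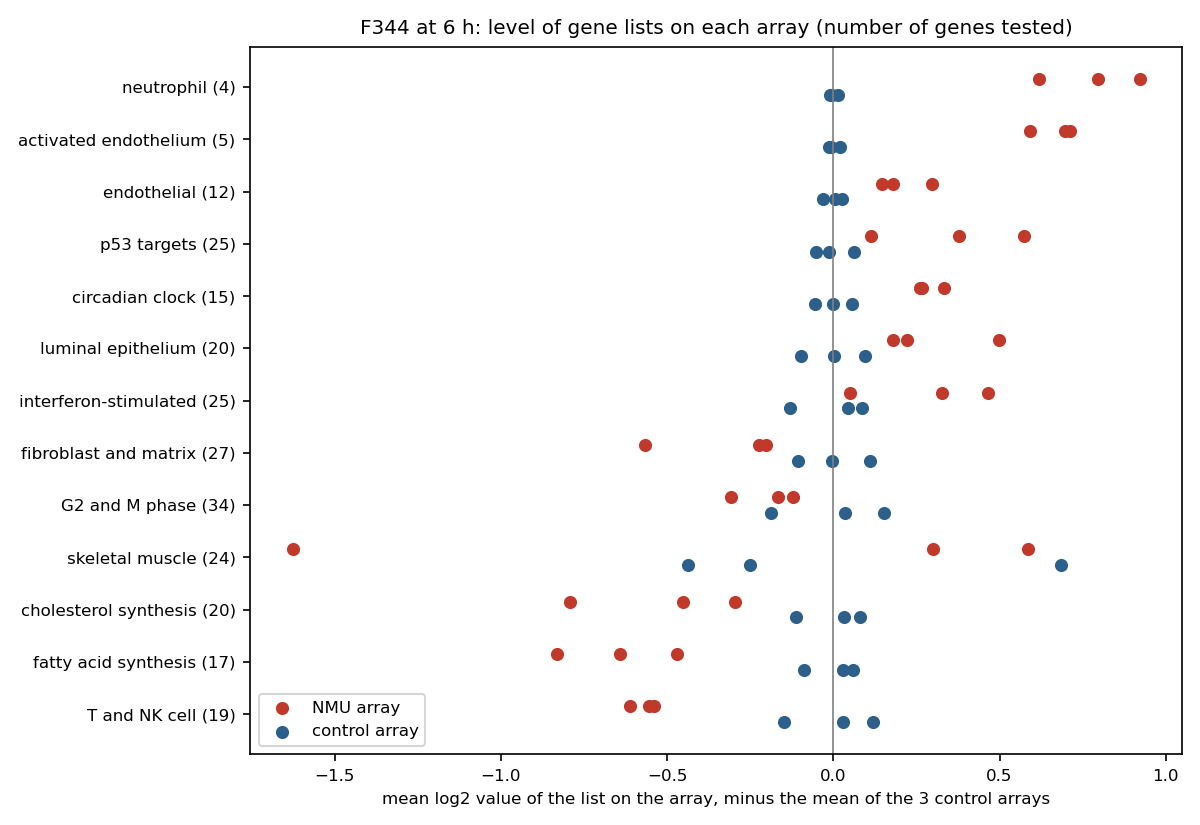
Mean log2 value of each gene list on each F344 array at 6 h, set against the mean of the 3 control arrays. NMU arrays are in red above control arrays in blue, and brackets give the number of genes tested. The means also include list genes too dim to test, so the neutrophil points average 9 genes, 5 of them dim. Neutrophil and activated endothelium genes lie to the right on all 3 NMU arrays, lipid synthesis and T cell genes to the left, and skeletal muscle spreads in both groups with NMU array 2 farthest left.

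The response in F344 was set against that of Cop rats at the same time, given NMU or saline at the same age. Of the 129 probe sets, 56 were also called in the same direction in Cop, which is 43.4% of the F344 calls and 4.11% of the 1364 Cop calls (6.57% of all probe sets). They were 29 of the 78 rises, where Cop rats had 3.74% of all probe sets called higher, and 27 of the 51 falls, where they had 2.83% called lower. Another 3 were called in opposite directions, and 110 had the same sign. S100a9 rose in both strains (2.36 in F344 and 2.68 in Cop), as did Cdkn1a (1.45 and 1.33), and Insig1 (-1.69 and -1.69) and Pnpla3 (-2.79 and -3.63) fell in both. For these 4 genes the test of the strain difference gave adjusted p values of 0.855, 0.931, 0.998 and 0.727, which does not show that the strains respond alike. Over all probe sets 182 passed that test (0.877%), among them 9 of the 129. Matrix genes and a folate enzyme gene were among these 9. Fn1 was at -0.74 in F344 and 1.24 in Cop, Fbn1 at -0.67 and 1.14, and Aldh1l2 at -1.50 and 1.38. Serpinh1, the collagen chaperone, fell in F344 (-0.57) and was at 0.25 in Cop. The median of the 27 matrix genes was -0.27 in F344 and 0.87 in Cop. Medians of some other lists were also apart, and no list was tested between the strains. The median was -0.16 in F344 and 2.20 in Cop for skeletal muscle, and -0.21 and 0.98 for G2 and M phase. Without NMU array 2 the muscle median in F344 was 0.50. For T and NK cells the medians were -0.68 in F344 and -1.79 in Cop. The part of tissue content in the matrix difference was not tested.

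Among lipid genes the strain difference was called for Acaca (-0.61 in F344 and -2.06 in Cop, adjusted p = 0.00752), Fasn (-0.43 and -1.96, adjusted p = 0.00528) and Srebf1 (0.01 and -1.23, adjusted p = 0.00138). None of these 3 had been called in F344 itself. The median of the cholesterol list was -0.51 in F344 and -0.75 in Cop, and that of the p53 list 0.32 and 0.39. Slc22a3, a carrier of organic cations, was at 0.19 in F344 and -1.63 in Cop, and Slc1a5, a glutamine carrier, at -0.25 and -1.45, and both passed the test.

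Most of the early changes were not called at 1 d. In F344 at 1 d, 204 probe sets were called (0.983%), and 8 of them were among the 129 in the same direction, which is 6.20% of the calls at 6 h and 3.92% of those at 1 d. The test of the difference between the times passed for 72 probe sets (0.347%) and for 8 of the 129. S100a8 was at 2.04 at 6 h and 0.08 at 1 d, Nupr1 at 1.08 and -0.13, Gabarapl1 at 0.82 and -0.19, and Aldh18a1 at -0.81 and 0.28, so each of these was larger at 6 h. Cxcl9, a chemokine induced by interferon, and Gzmb, a granzyme of killer cells, passed in the opposite sense, with Gzmb at 0.28 at 6 h and 2.44 at 1 d. The median of the 25 interferon genes was 0.26 at 6 h and 1.51 at 1 d. Cdkn1a was at 1.45 at 6 h and 0.74 at 1 d, a difference that did not pass (adjusted p = 0.777).

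**Figure D5:**
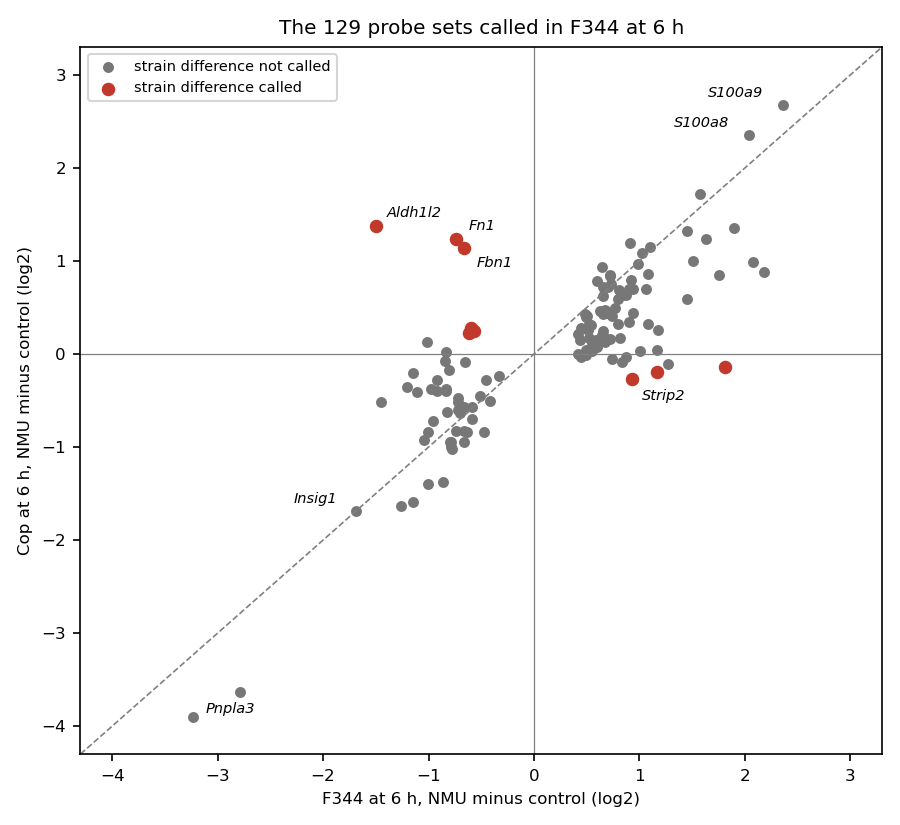
Change (NMU minus control, log2) in F344 at 6 h on the horizontal axis and in Cop at 6 h on the vertical axis for the 129 probe sets called in F344, with the dashed line marking equal changes. Red points passed the test of a strain difference. Most points lie in the lower left and upper right, and Aldh1l2, Fn1 and Fbn1 lie in the upper left.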

How the data were processed

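Mammary gland RNA was hybridised to 36 1-colour Affymetrix rat arrays, 3 for each of 12 groups. Per the labels, biotin-labelled cRNA was made from RNeasy-prepared total RNA, and the submitters' processing notes name GCOS. The deposited series table holds log2 values of 31099 probe sets on a common scale, as their range and near-equal array medians show, and no source used here states the normalization. Depth does not apply to arrays.

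From these values a cell-means model of all 36 arrays was fitted with limma 3.58.1 in R 4.3.3 (trended, robust; 24 residual degrees of freedom), on 20749 probe sets above the 40th percentile of their array on at least 3 arrays, leaving out 57 control and 10293 dim probe sets. P-values are two-sided, adjusted over all probe sets tested, and called under 0.05. The probe set with the highest mean stood for a gene. Symbols come from the platform annotation, and 68 probe sets carried a gene ID not in the RefSeq table. Named genes were the 20 largest rises and 20 largest falls called without overlap, and the called genes of each list. A list without a call gave its gene of smallest p. Cdkn1a, Mdm2, Mgmt, Prlr and Per2 were added, and 5 genes in each direction of each difference test. Outside this rule, the text prints further list members as examples, long genes called lower, and called genes that passed a difference test. Others are said to be chosen later. The members and lists were chosen with earlier results of these data known. The fit was tested on simulated data. Same-numbered arrays were checked for pairing, with correlations of deviations of -0.0137, 0.35 and 0.507 for numbers 1, 2 and 3. NMU arrays 2 and 3 correlated best with the control of their own number, and NMU array 1 did not. NMU array 2 stood nearly as close to control array 1 (0.33). The labels name no pairs, so the main fit left the arrays unpaired, and a replicate block was run beside it. Alternatives were another normalization, other filters, array weights, a replicate block, fewer arrays and leaving out each array. Glands at 30 d entered only the estimate of spread.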

Additional observations from a re-analysis of the deposited data

Results flagged for a closer look

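The following differences were picked out because the test of the difference itself passed among the probe sets called in F344 at 6 h, in limma with adjustment over all probe sets. The NMU response of F344 minus that of Cop at 6 h was -1.80 for Fbn1, -1.98 for Fn1 and -0.82 for Serpinh1, all matrix or collagen genes, and -2.88 for Aldh1l2. For these 4 the F344 rats were lower after NMU and the Cop values were above 0. It was -0.85 for the ephrin receptor gene Epha3 and -0.88 for Efr3b, a membrane lipid kinase adaptor. The Epha3 value came from a dim probe set, with F344 means of 4.62 with NMU and 5.24 in controls. Brighter probe sets of Epha3 did not pass the strain test (adjusted p = 0.136 and 0.070). The F344 response minus that of Cop was 1.19 for Strip2, which was higher after NMU in F344 and at -0.27 in Cop. It was 1.36 and 1.94 for a pair of probe sets with no gene symbol, both called higher in F344.

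The F344 response at 6 h minus that at 1 d was 1.96 for S100a8, 1.22 for Nupr1, 1.33 for Kiaa0408L, 1.08 for Klhl21, 1.00 for Gabarapl1, 0.92 for Abhd14a and 0.78 for the protocadherin-like gene Fat1. These 7 rose at 6 h. It was -1.08 for Aldh18a1, which fell at 6 h.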

How the results depend on the processing

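The number of probe sets called in F344 at 6 h, 129 as reported, was 874 with array quality weights (556 higher, 318 lower), 85 without the filter on dim probe sets and 7 when the 6 compared arrays were fitted alone. It was 23 to 136 with 1 array left out. The cause was not tested for the weights; the fit of 6 arrays has fewer samples, and the fit without a filter tests more probe sets. It was 146 after quantile normalization (62 higher, 84 lower), 138 with the replicate block, 132 with a floor, 119 without trend and robust options, 118 with a stricter filter, 112 with probe sets averaged by gene and 102 with the 18 F344 arrays alone. With array weights the cholesterol list had 12 genes called lower and the fatty acid list 8. The strain difference, 182 probe sets, was 86 to 196 with 1 array left out, and 146 with the replicate block. The difference between times, 72 probe sets, was 52 to 77 with 1 array left out and 64 with the block. Of 74 named genes, none that was called changed direction under any alternative run. Genes not called with a change near 0, such as Mgmt, could change sign. Of the 74, 9 were no longer called with the block, 16 with the F344 arrays alone, 40 with the 6 arrays alone and 8 to 30 with 1 array left out. The median change of genes of 300 kb or more, an alternative chosen after seeing the data, was -0.23 after quantile normalization. Same-numbered arrays did not all correlate best with their own number. Probe sets near background, such as those of Wwox and Efr3b, are measured with less signal, and 10293 were too dim to test.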
